A study of Homo sapiens with 2 samples.

Results

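APOE, APOC1, TOMM40 and NECTIN2 are neighbouring genes on chromosome 19. They are 4 of the 30796 genes measured in single cells of MDAMB468 and CAL51, 2 human cell lines derived from triple-negative breast cancer, and all 4 were found in the table by symbol through their Ensembl identifiers. Triple-negative tumours lack the oestrogen and progesterone receptors and HER2 amplification, and both lines are established cultures that stand in for such tumours. Each line was represented by 1 library, with no treatment named in the labels, made with in-house Drop-seq, which captures polyadenylated RNA of single cells in droplets and tags each molecule with a barcode for its cell and a random sequence for itself, the unique molecular identifier (UMI). The genes were chosen with earlier results of these data known, namely their UMI totals in the lines, the spread of their UMIs between CAL51 cells and the APOE-APOC1 correlation, so these values are given as a description, with no test. With 1 library per line no difference has a replicate check, and every interval is a 95% interval for counting error only.

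APOE encodes apolipoprotein E, a secreted protein that carries lipids in lipoproteins and is taken up through receptors of the LDL receptor family. APOC1 encodes apolipoprotein C1, a small protein that exchanges between lipoproteins and inhibits their uptake and remodelling. The genes lie in the APOE/C1/C4/C2 cluster, which is known from liver, macrophages and adipose cells for shared enhancers and for activation by the LXR nuclear receptors. TOMM40 encodes the channel of the TOM complex, through which proteins enter mitochondria, and NECTIN2 encodes an immunoglobulin-like adhesion protein that also binds receptors on lymphocytes.

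All 4 genes run on the plus strand of chromosome 19 in GENCODE 29 (GRCh38), in the order NECTIN2 (ENSG00000130202, chr19:44846175-44889228), TOMM40 (ENSG00000130204, chr19:44890569-44903689), APOE (ENSG00000130203, chr19:44905754-44909393) and APOC1 (ENSG00000130208, chr19:44914247-44919349). TOMM40 starts 1340 bases after NECTIN2 ends, APOE 2064 bases after TOMM40 and APOC1 4853 bases after APOE. The 250 bases before the RefSeq start of APOE, APOC1 and TOMM40 (GRCh38.p14, plus strand) are printed because APOE and APOC1 differed between the lines by far more than TOMM40 did. APOE has 3 windows in the RefSeq table, of which the first is shown, chr19:44905546-44905795. The APOC1 window is chr19:44914422-44914671 and the TOMM40 window chr19:44891004-44891253. RefSeq starts lie inside the GENCODE spans: the APOC1 and TOMM40 windows fall wholly within the span that GENCODE 29 gives the gene, and those of APOE and NECTIN2 run past its start. Capitals mark GGGCGG (the GC box, bound by SP1-type factors) and CCAAT, each on either strand, so that CCGCCC and ATTGG are the same motifs read from the minus strand.
APOE: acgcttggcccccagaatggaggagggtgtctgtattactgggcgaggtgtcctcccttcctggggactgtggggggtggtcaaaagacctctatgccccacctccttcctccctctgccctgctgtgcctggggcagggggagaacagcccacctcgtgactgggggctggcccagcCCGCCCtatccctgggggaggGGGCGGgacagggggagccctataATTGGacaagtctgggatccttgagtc
APOC1: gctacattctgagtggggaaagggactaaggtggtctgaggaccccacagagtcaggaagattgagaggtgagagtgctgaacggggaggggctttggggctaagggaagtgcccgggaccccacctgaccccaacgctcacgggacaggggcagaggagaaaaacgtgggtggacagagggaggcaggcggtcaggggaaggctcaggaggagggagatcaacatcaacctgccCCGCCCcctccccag
TOMM40: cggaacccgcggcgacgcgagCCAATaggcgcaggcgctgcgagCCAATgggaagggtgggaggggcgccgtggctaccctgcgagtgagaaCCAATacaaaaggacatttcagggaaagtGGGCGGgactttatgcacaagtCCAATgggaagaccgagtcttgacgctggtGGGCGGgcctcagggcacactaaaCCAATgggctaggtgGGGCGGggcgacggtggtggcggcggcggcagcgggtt
The APOE window holds GGGCGG beginning 72 bases (minus strand) and 51 bases (plus strand) before the start, and CCAAT 27 bases before it on the minus strand. The APOC1 window holds GGGCGG once, 15 bases before the start on the minus strand, and no CCAAT. The TOMM40 window holds GGGCGG at 129, 77 and 38 bases and CCAAT at 229, 206, 158, 107 and 53 bases before the start, all on the plus strand. The NECTIN2 window, chr19:44846047-44846296, holds GGGCGG at 246, 78 and 54 bases and no CCAAT. Of 35116 windows of this length in the table, 42.6% hold GGGCGG and 32.0% hold CCAAT. None of the 4 windows holds AGGTCA (the nuclear receptor half-site, in 12.1% of all windows), its direct repeat with 4 bases between, the form that LXR binds (0.0142%), TATAAA (10.7%), TGACTCA (4.20%) or CACGTG (6.34%), on either strand. The matches do not overlap one another in these windows. The GC content is 64.8% in the APOE and TOMM40 windows, 62.4% in APOC1 and 67.6% in NECTIN2, beside a median of 58% over all windows.

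The MDAMB468 library held 306 barcodes and 5501900 UMIs, with a median of 10016.5 UMIs per barcode (2501 to 134213). The CAL51 library held 1346 barcodes and 16223444 UMIs, with a median of 8635 (2506 to 113702), after 31 further barcodes were left out because MDAMB468 holds the same barcode sequences. Of the 306 MDAMB468 barcodes, 64 differed by 1 base from a barcode of that library with at least 5 times as many UMIs. In CAL51, 7 of the 1346 did. Such barcodes may not be separate cells. They were kept, so the shares and intervals over MDAMB468 barcodes may count 1 cell more than once. The median mitochondrial share of UMIs was 6.04% in MDAMB468 and 4.25% in CAL51. Of 6 epithelial markers, all had UMIs in MDAMB468, with a summed level of 5105 CPM (UMIs of a gene scaled to 1e6 UMIs in the line). In CAL51 the sum was 2788 CPM, KRT7 was at 0 UMIs and CDH1, the epithelial cadherin, at 7. The simple keratins KRT8 and KRT18 were at 919 and 1555 CPM in CAL51 and at 764 and 555 CPM in MDAMB468. EPCAM and KRT19 lay the other way, at 283 and 30.6 CPM in CAL51 and at 867 and 1934 CPM in MDAMB468. Genes of other cell types that make APOE were close to absent among those in the table. Of 11 macrophage markers, 8 were in the table, with 12 UMIs together in MDAMB468 and 14 in CAL51. CSF1R was at 0 and PTPRC at 3 in CAL51. The 4 astrocyte markers had 16 and 51 UMIs. Of 4 adipocyte markers, 3 were in the table, with 4 and 18 UMIs. C1QA, C1QC, TYROBP and LEP had no entry. Of 6 hepatocyte markers, ALB, TTR and SERPINA1 had no entry either. Of the 3 in the table, APOA1 had 0 UMIs in MDAMB468 and 598 in CAL51, while APOA2 and FGB had 0 and 1 in CAL51.

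APOE RNA was abundant in CAL51 and almost absent from MDAMB468. It had 5213 UMIs in CAL51, a level of 321 CPM (313 to 330), and 1 UMI in MDAMB468, a level of 0.182 CPM (0.00460 to 1.01). APOC1 showed the same pattern, with 6383 UMIs and 393 CPM (384 to 403) in CAL51 and 0 UMIs in MDAMB468, which at a floor of 3 counts over the library, a one-sided limit, allows up to 0.545 CPM. The CAL51 level of APOE was 1768 times that of MDAMB468 (317 to 69841.5), a ratio that rests on 1 UMI, and that of APOC1 was at least 722-fold higher against that floor, with a two-sided exact interval that starts at 587. On the log2(CPM + 1) scale, MDAMB468 minus CAL51, the differences were -8.09 for APOE and -8.62 for APOC1. This scale understates the difference of genes near 0. Ordered from the gene highest in CAL51, APOC1 was number 8 and APOE number 10 of the 15347 genes with at least 20 UMIs.

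TOMM40 lay at the same level in both lines within counting error. It had 398 UMIs in MDAMB468, 72.3 CPM (65.4 to 79.8), and 1302 in CAL51, 80.3 CPM (76.0 to 84.7). The CAL51 to MDAMB468 ratio was 1.11 (0.991 to 1.24), and the log2 difference of -0.15 was -0.02 relative to the median of all genes tested, -0.13. NECTIN2 was higher in CAL51, with 92 UMIs and 16.7 CPM (13.5 to 20.5) in MDAMB468 and 930 UMIs and 57.3 CPM (53.7 to 61.1) in CAL51. Its ratio was 3.43 (2.76 to 4.29) and its log2 difference -1.72. In order of the log2 difference, APOC1 and APOE came first, NECTIN2 next and TOMM40 last, and the counting intervals of all but TOMM40 lay apart between the lines.

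Of the 4 genes, 3 were thus at least 2-fold higher in CAL51 and 0 at least 2-fold higher in MDAMB468. Over all 15347 genes tested, 2847 were at least 2-fold higher in CAL51 (18.6%) and 2429 at least 2-fold higher in MDAMB468 (15.8%). Because the genes were chosen with this contrast in view, nothing is read from their count.

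The surroundings of APOE held genes higher in either line. GENCODE 29 annotates 33 genes within 250 kb of APOE, of which 22 were in the table and 18, 14 of them protein coding, had at least 20 UMIs. Besides the 4 genes above, 14 neighbours reached that minimum. Of these, 2 were at least 2-fold higher in CAL51 (18.6% of all genes) and 4 in MDAMB468 (15.8%). The other 8 differed by less, and the median log2 difference was 0.20, beside -0.13 for all genes. With so few genes, nothing is read from these counts. BCAM, a laminin receptor whose lower end lies at -96.7 kb from that of APOE, had 77 UMIs in MDAMB468 and 1246 in CAL51 and was 5.49-fold (4.36 to 7.0) higher in CAL51. Its neighbour CBLC, a ubiquitin ligase of the CBL family, lay the other way, with 86 UMIs in MDAMB468 and 36 in CAL51 and a level 7.04-fold (4.72 to 10.7) higher in MDAMB468. Between them, the lincRNA ENSG00000285128 had 32 UMIs in MDAMB468 and 3 in CAL51, a ratio of 31.5 (9.84 to 161).

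Downstream of the cluster, RELB, an NF-kB subunit, had 24 and 21 UMIs and was 3.37-fold (1.80 to 6.36) higher in MDAMB468. The zinc finger gene ZNF296 had 42 and 34 UMIs and was 3.64-fold (2.26 to 5.90) higher in MDAMB468. The other protein-coding neighbours differed by less than 2-fold, with log2 differences of 0.43 for CLPTM1, -0.34 for GEMIN7 (a member of the SMN complex), 0.20 for BCL3 (an NF-kB regulator), 0.07 for CLASRP, -0.05 for PPP1R37 and 0.20 for CEACAM19. GEMIN7-AS1, at 0.39, overlaps GEMIN7 on the other strand, and their reads may not have been told apart. The pseudogene APOC1P1, a near copy of APOC1, had 0 UMIs in MDAMB468 and 26 in CAL51, at least 2.94-fold higher against the floor of 3 counts (two-sided interval from 2.22), and reads of the copies may have been divided uncertainly between them. The unverified transcript ENSG00000280087, which overlaps the end of APOE and the start of APOC1, had 5 and 15 UMIs, levels of 0.909 and 0.925 CPM, with a log2 difference of -0.01. APOC4-APOC2, the read-through gene of the cluster, had 2 UMIs in MDAMB468 and 0 in CAL51. APOC2, APOC4 and 9 other annotated neighbours had no identifier in the table, so they could not be analysed here.

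**Figure D1:**
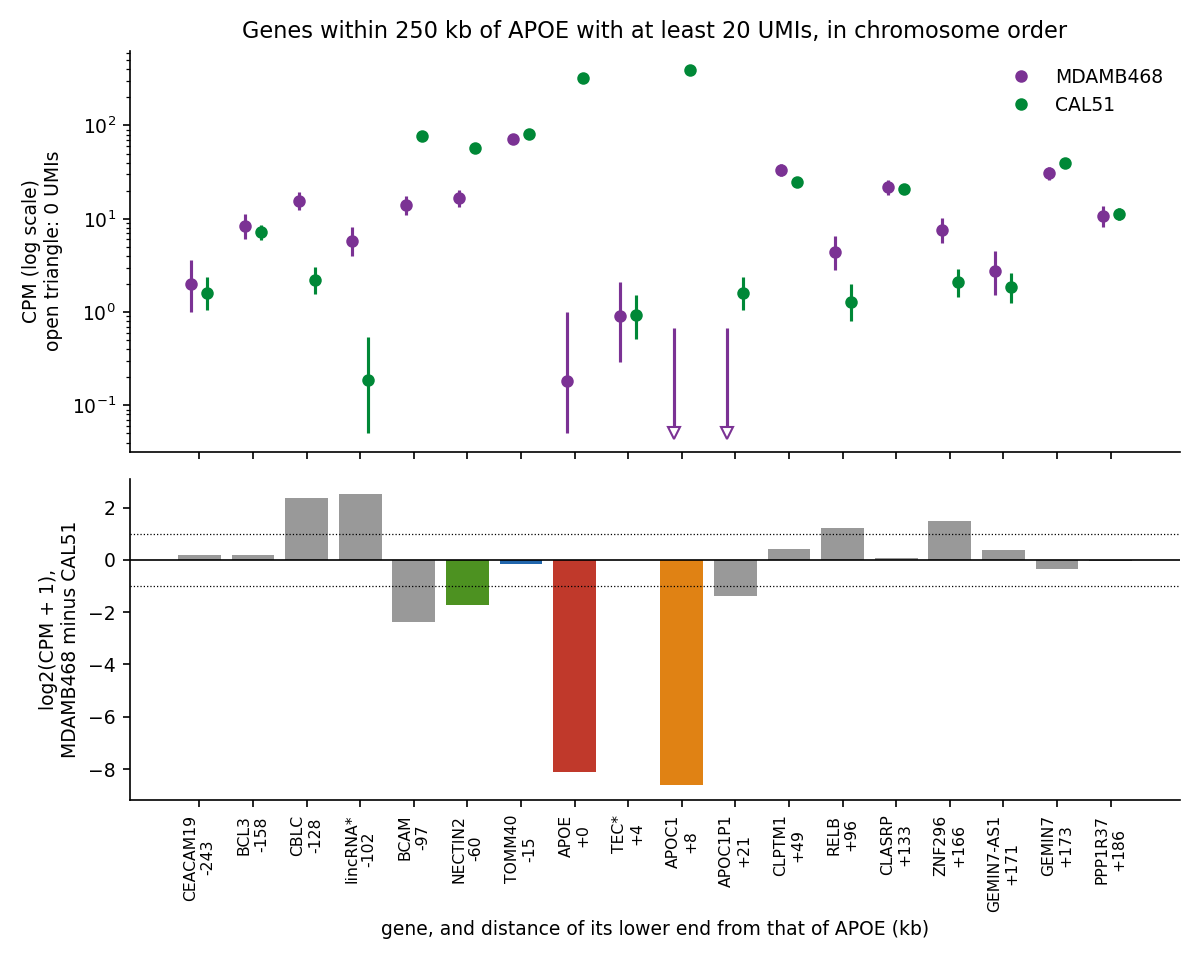
Genes within 250 kb of APOE with at least 20 UMIs, in chromosome order, with the distance in kb of the lower end of each from that of APOE. The upper panel gives CPM on a log axis with exact Poisson intervals for both lines, an open triangle for 0 UMIs, and the lower panel the log2(CPM + 1) difference with dotted lines at 2-fold. The asterisks stand for the lincRNA ENSG00000285128 and the transcript ENSG00000280087. APOE and APOC1 reach -8.09 and -8.62, while TOMM40 next to them is at -0.15.

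Seen per cell, APOE had at least 1 UMI in 870 of 1346 CAL51 barcodes, 64.6% (Clopper-Pearson 62.0 to 67.2), and in 1 of 306 MDAMB468 barcodes, 0.327% (0.00827 to 1.81), although the median depth of MDAMB468 was the higher. APOC1 had a UMI in 936 CAL51 barcodes, 69.5% (67.0 to 72.0), and in 0 of 306 MDAMB468 barcodes. At a floor of 3 barcodes this allows a share with a UMI of up to 0.980%, and the two-sided Clopper-Pearson limit is 1.20%. It limits barcodes with a UMI, not cells that express the gene. When every barcode was thinned to 2500 UMIs, which all reached, the CAL51 shares were 38.9% for APOE and 44.1% for APOC1. Thinned values here are means over 20 random thinnings. The MDAMB468 shares, near 0, come from a separate library, and the level of free RNA in the CAL51 droplets was not tested.

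TOMM40 had a UMI in 647 CAL51 barcodes (48.1%, 45.4 to 50.8) and 161 MDAMB468 barcodes (52.6%, 46.9 to 58.3), and at 2500 UMIs in 16.5% and 16.4%. NECTIN2 had a UMI in 529 CAL51 barcodes (39.3%, 36.7 to 42.0) and 65 MDAMB468 barcodes (21.2%, 16.8 to 26.3), and at 2500 UMIs in 12.3% and 3.37%. The shares at equal depth thus followed the CPM for both.

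Within CAL51, APOE and APOC1 were spread unevenly over the cells, more so than TOMM40 and NECTIN2. The Fano factor, the variance of UMIs per cell over their mean, is 1 for counts that scatter by sampling alone. At 2500 UMIs per cell it was 2.24 for APOE (2.09 to 2.38 over the thinnings) at a mean of 0.766 UMIs, and 2.30 for APOC1 (2.09 to 2.46) at a mean of 0.895. These were number 30 and number 28 of 4258 genes with a mean of at least 0.1 UMIs, whose median was 1.06. Among the 489 genes with a mean within 0.5 log2 units of that of APOE, the median was 1.09 and 5 lay above APOE, and among the 399 around APOC1 the median was 1.09 and 2 lay above it. TOMM40 had a Fano factor of 1.08 (0.996 to 1.18) at a mean of 0.187, and NECTIN2 of 1.09 (1.01 to 1.17) at a mean of 0.138. Of 1629 genes with a mean like that of TOMM40, 410 lay above it, and of 1735 around NECTIN2, 215 did, with a median of 1.05 in both sets. In MDAMB468 the Fano factors of TOMM40 and NECTIN2 were 1.02 and 1.11. Because the Fano factor shrinks with the mean, the excess over 1 was also divided by the mean, which gave 1.61 for APOE, 1.45 for APOC1, 0.421 for TOMM40 and 0.681 for NECTIN2, a smaller contrast.

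**Figure D2:**
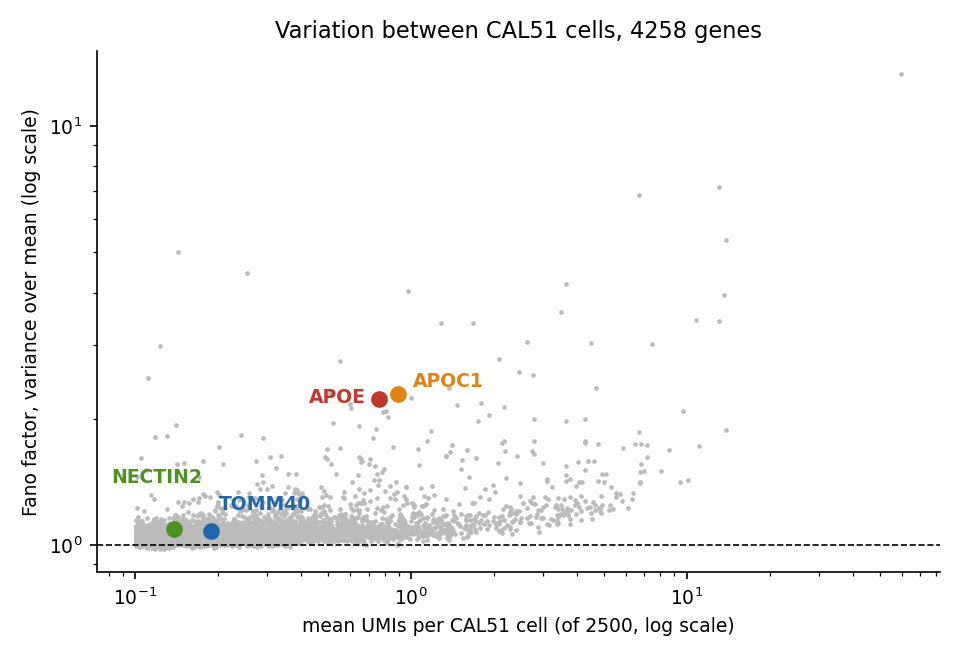
Mean UMIs per CAL51 cell at 2500 UMIs (log axis) against the Fano factor (log axis) for 4258 genes, grey, with the 4 genes in colour and a dashed line at 1. APOE at 2.24 and APOC1 at 2.30 lie above most genes of like mean, and TOMM40 at 1.08 and NECTIN2 at 1.09 lie nearer to the line.

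Beside a Poisson distribution, both more cells had 0 UMIs and more cells had many. A cell at 0 UMIs at this depth may still hold the RNA. Of CAL51 cells, 61.1% had 0 APOE UMIs at 2500, where a Poisson distribution of the same mean gives 46.5%, and 55.9% had 0 APOC1 UMIs, where it gives 40.9%. At the other end, 33.85 cells on average had at least 5 APOE UMIs, beside 1.57 under the Poisson distribution, and 40.35 had at least 5 APOC1 UMIs, beside 3.08. The 135 cells richest in each gene held 51.2% of all APOE UMIs and 47.7% of all APOC1 UMIs. For TOMM40 and NECTIN2, whose means were lower, these shares were 65.5% and 83.6%. Such a share rises as the mean falls, so no unevenness is read from it. For TOMM40 the share of cells at 0 was 83.5% beside 82.9%, and for NECTIN2 87.7% beside 87.1%.

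**Figure D3:**
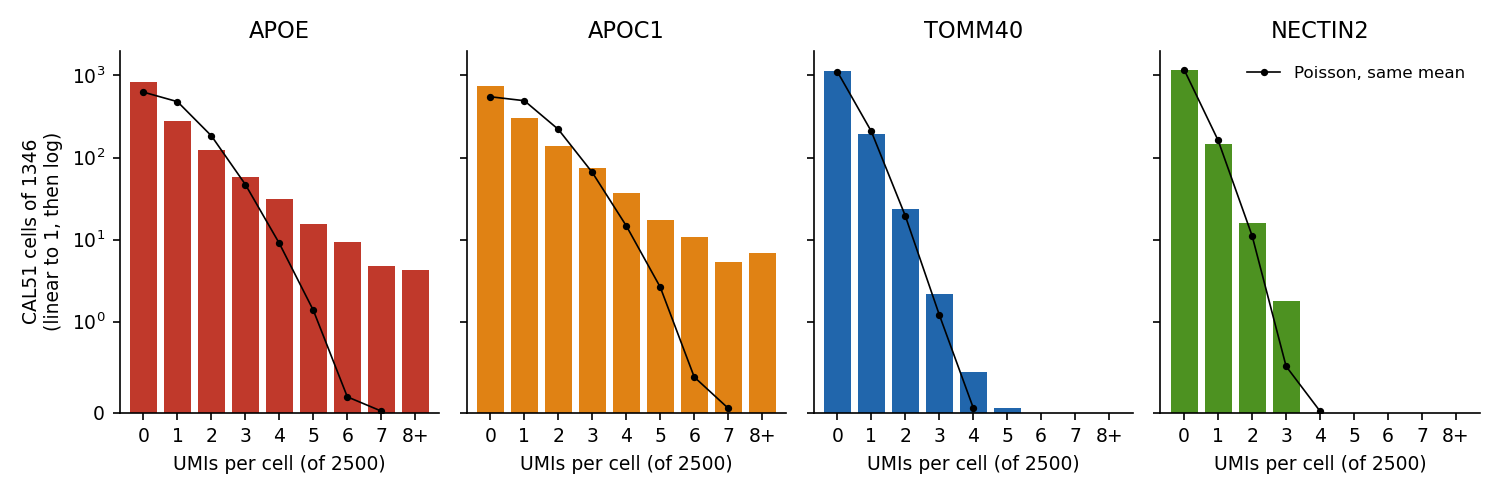
CAL51 cells by UMIs of each gene after thinning to 2500 UMIs (bars, mean of 20 thinnings, 1346 cells), beside a Poisson distribution of the same mean (black points). The vertical axis is linear up to 1 cell and logarithmic above. The bars of APOE and APOC1 pass the Poisson points at 0 UMIs and from 3 UMIs on, while those of TOMM40 and NECTIN2 stay close to them up to 2 UMIs.

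The deepest quartile of these same cells, 337 CAL51 cells with at least 14228 UMIs, was also described without thinning. It restates the same spread at greater depth and is no separate check. Of these, 54 (16.0%) had 0 APOE UMIs and 28 (8.31%) had 0 APOC1 UMIs, where equal levels in all of them would leave 0.544 and 0.111 cells at 0. TOMM40 was at 0 in 61 (18.1%) beside 51.9 under equal levels, and NECTIN2 in 111 (32.9%) beside 91.2. At the median depth of these cells a count of 0 allows up to 145 CPM. The median APOE level was 187 CPM, the 90th percentile 909 and the highest 2435, and for APOC1 the values were 280, 1087 and 4190 CPM. For TOMM40 they were 65.6, 190 and 524 CPM, and for NECTIN2 49.2, 132 and 327 CPM. Doublets were not called here, and the part of doublets in the richest cells was not tested.

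APOE and APOC1 were often high in the same CAL51 cells. Their Pearson r over the 1346 cells at 2500 UMIs was 0.420 (0.381 to 0.471 over the thinnings) and Spearman's rho 0.360. Taking the Poisson part off both variances gave 0.754. The cells share 1 library, so these are descriptions of it. At least 1 UMI of each was seen in 323.05 cells on average, where the product of the separate shares gives 231, and 61.6% of cells with APOE also had APOC1, against 32.9% of cells without. At least 3 UMIs of each were seen in 49.45 cells, where the product gives 13.9. Both genes did occur apart: 74.35 cells had at least 3 APOE UMIs and fewer than 3 of APOC1, and 102 the reverse.

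**Figure D4:**
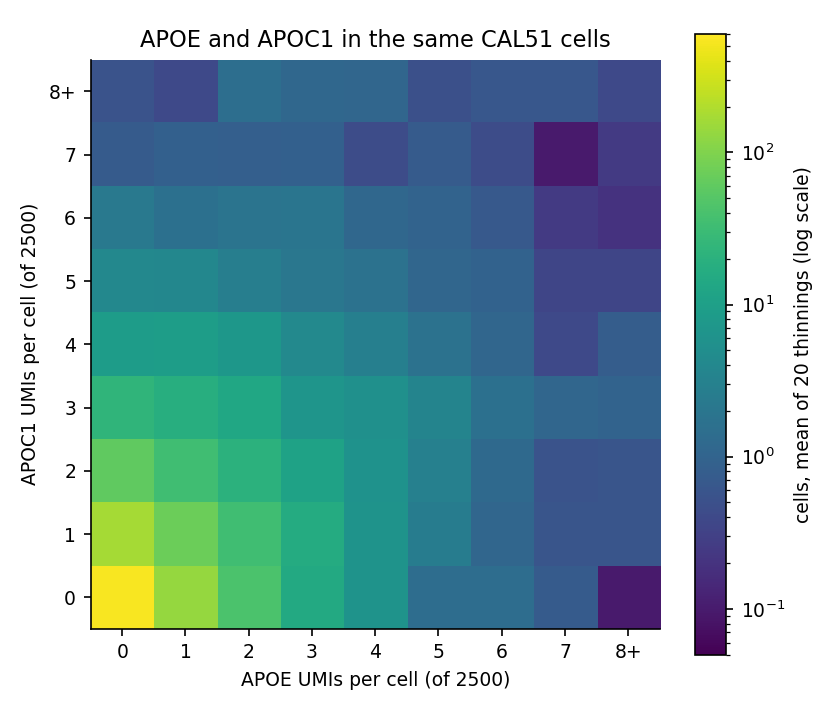
APOE UMIs (horizontal) and APOC1 UMIs (vertical) in the same 1346 CAL51 cells at 2500 UMIs. The colour gives the number of cells on a log scale, as the mean of 20 thinnings. Most cells sit near the origin, and cells with at least 3 UMIs of both number 49.45, where the product of the separate shares gives 13.9.

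Grouped by APOE, the mean of APOC1 was 0.537 UMIs in the 821.9 cells with 0 APOE UMIs, 1.16 in the 400.3 cells with 1 or 2 and 2.43 in the 123.8 cells with at least 3. TOMM40, whose gene ends 2064 bases before APOE, had means of 0.192, 0.180 and 0.180 in the same cells, and NECTIN2 of 0.130, 0.145 and 0.163. The r of TOMM40 was -0.01 with APOE and -0.01 with APOC1, and that of NECTIN2 0.02 with both. Among 8 genes of the region, giving 28 pairs, the 27 pairs other than APOE with APOC1 lay between -0.02 and 0.03. In sparse counts such values are no finding.

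Across CAL51 cells, the highest r with APOE after that of APOC1, 0.420, were far lower. Of 4157 genes compared, 4 had an r of at least 0.15 with APOE (0.0962%): APOC1, GSTP1 at 0.19 (a glutathione S-transferase), ANXA4 at 0.17 (an annexin) and APLP2 at 0.17 (a relative of the amyloid precursor protein). The median over all of them was -0.002. Next came BCAT1 at 0.14 (a branched-chain aminotransferase), SOX17 at 0.13 (an endodermal transcription factor), COL4A1 at 0.12 (a basement membrane collagen), SPINT2, ITM2B and CALM2 at 0.12, PLAAT3 at 0.12 (a phospholipase) and CROT at 0.12 (a peroxisomal carnitine acyltransferase). Of these 11 genes besides APOC1, 7 were also among the 11 most like APOC1, where ANXA4 was first at 0.19. APOE and APOC1 correlate in the same cells, so this overlap is no separate result. From cells with 0 to cells with at least 3 APOE UMIs, the mean of ANXA4 went from 0.538 to 1.09 UMIs, that of SOX17 from 0.341 to 0.623 and that of GSTP1 from 12.7 to 16.9. The Poisson part was not taken off these r. It lowers r more for genes with a Fano factor near 1, such as SOX17 (1.26) and COL4A1 (1.32), than for GSTP1 (3.95). The order of genes by r, and which of them reach 0.15, may thus partly reflect abundance. The same holds for the lowest r.

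The lowest r with APOE was -0.14, for TPM1, which encodes a tropomyosin of actin filaments. EMP1, a membrane protein, and PTMA, prothymosin alpha, were at -0.10, TMSB4X, which binds actin monomers, at -0.10, SAT1, a polyamine acetyltransferase, at -0.10, and ITPRID2, ACTB (actin) and MYH10 (a non-muscle myosin) at -0.09. Of these 8 genes, 3 were also among the 8 lowest with APOC1, where TPM1 was again the lowest at -0.18. This overlap is no separate result either. The mean of TPM1 was 5.04 UMIs in cells with 0 APOE UMIs and 3.53 in cells with at least 3, and that of EMP1 0.824 and 0.447. Of 9 genes picked after seeing the data because they lead other sets of CAL51 cells, NTS, the neurotensin precursor, had the lowest r with APOE, -0.09, and means of 0.333, 0.161 and 0.0375 UMIs in cells with 0, with 1 or 2 and with at least 3 APOE UMIs. PTGDS, a prostaglandin D synthase, had the highest r, 0.04, with means of 0.0388, 0.0578 and 0.0767. The collagens COL2A1, COL3A1 and COL1A2 were at -0.04, -0.02 and -0.01, ADAMTS8 at -0.02, and the mitotic genes PLK1, CENPE and AURKA at -0.01.

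**Figure D5:**
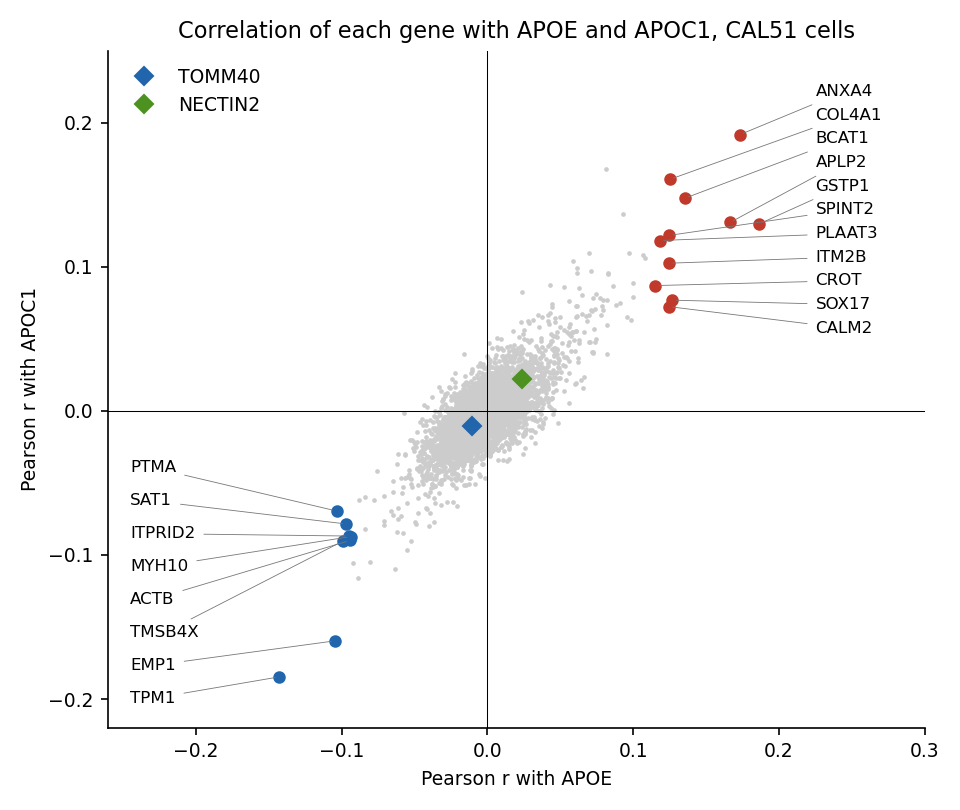
Pearson r of each gene with APOE (horizontal) and with APOC1 (vertical) over 1346 CAL51 cells at 2500 UMIs. Red points are the 11 genes other than APOC1 with the highest r with APOE, blue points the 8 with the lowest, diamonds TOMM40 and NECTIN2, grey points the other genes. Both axes share the same cells and the correlated pair, so the diagonal form is no separate result, and TOMM40 and NECTIN2 lie near 0 on both.

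Levels of APOE and APOC1 were also compared by depth, mitochondrial share and called cell cycle phase, with intervals that cover counting error and not the spread between cells. At equal depth APOE had means of 0.692, 0.827, 0.692 and 0.852 UMIs in the quartiles of the original total, from the shallowest to the deepest, and APOC1 0.705 (0.617 to 0.799), 0.878, 0.865 and 1.13 (1.02 to 1.25). The r of APOE with APOC1 was 0.429 within the shallowest quartile and 0.394 within the deepest. The r with the mitochondrial share was -0.11 for APOE and -0.09 for APOC1. By called cell cycle phase, APOE had 1.11 UMIs (0.904 to 1.35) in 90 cells called G1, 0.738 (0.656 to 0.826) in 403 called S and 0.742 (0.685 to 0.802) in 853 called G2/M. At least 1 APOE UMI was seen in 49.9%, 37.6% and 38.4% of them. APOC1 had 1.14 (0.934 to 1.39), 0.876 (0.787 to 0.972) and 0.878 (0.816 to 0.943), and a UMI in 43.1%, 43.3% and 44.5%. Since both genes vary between cells by more than counting error, no difference between phases or depths is read from these intervals. TOMM40 had 0.0967 (0.0457 to 0.190) in G1, 0.218 (0.175 to 0.269) in S and 0.182 (0.154 to 0.213) in G2/M. Its G1 value rests on 8.7 UMIs on average in 90 cells, and no difference between phases is read from it. The r of APOE with APOC1 was 0.371, 0.438 and 0.420 in the 3 phases. The phases are relative calls on 43 S and 54 G2/M genes, and no cycling is read from them.

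Of 13 other apolipoprotein genes on the list, 8 were in the table and 3 had at least 20 UMIs. Of these 3, 2 were at least 2-fold higher in CAL51 and 0 in MDAMB468, beside 18.6% and 15.8% of all genes. APOA1, the main protein of HDL, had 0 UMIs in MDAMB468 and 598 in CAL51, at least 67.6-fold higher against the same floor (two-sided interval from 54.8). CLU, clusterin, had 106 and 1592 UMIs and was 5.09-fold (4.18 to 6.26) higher. APOM, an HDL carrier of sphingosine-1-phosphate, had 44 and 72 UMIs and a log2 difference of 0.73, on the MDAMB468 side. The median of the 3 was -2.29, beside -0.13 for all genes. APOA1 reached the minimum of 20 UMIs through CAL51 alone, so no direction is read from the count of this list.

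Of 8 genes that remodel lipoproteins, 5 were tested, 3 of them at least 2-fold higher in CAL51 and 1 in MDAMB468 (18.6% and 15.8% of all genes), with a median of -1.10. PLTP, the phospholipid transfer protein, had 0 UMIs in MDAMB468 and 535 in CAL51, at least 60.5-fold higher against the floor (two-sided interval from 49.0). LIPG, endothelial lipase, had 52 and 1162 UMIs and was 7.58-fold (5.74 to 10.2) higher in CAL51. LCAT, which esterifies cholesterol in HDL, had 1 and 25 UMIs, a ratio of 8.48 (1.39 to 348). LIPA, the lysosomal acid lipase that frees cholesterol from lipoprotein esters, had 183 and 159 UMIs and was 3.39-fold (2.73 to 4.22) higher in MDAMB468.

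Receptors and binding proteins of APOE went both ways. Of 15, 14 were tested, 7 at least 2-fold higher in CAL51 and 4 in MDAMB468 (18.6% and 15.8% of all genes), with a median of -0.80. VLDLR, a receptor of the LDL receptor family, had 27 UMIs in MDAMB468 and 1315 in CAL51 and was 16.5-fold (11.3 to 25.2) higher in CAL51. SDC2, a heparan sulphate proteoglycan, had 438 and 5779 UMIs and was 4.47-fold (4.06 to 4.94) higher. LRPAP1, the chaperone of these receptors, had 308 and 2951 UMIs and was 3.25-fold (2.89 to 3.67) higher. SDC4, another syndecan, lay the other way, with 229 and 103 UMIs and a level 6.56-fold (5.17 to 8.36) higher in MDAMB468. The others on that side were LSR, a lipoprotein receptor, at a log2 difference of 1.53, LRP8 at 1.13 and SORL1 at 1.11.

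Of 11 LXR and cholesterol efflux genes, 9 were tested, 1 at least 2-fold higher in CAL51 and 2 in MDAMB468, beside 18.6% and 15.8% of all genes, with a median of -0.15. ABCA1, the cholesterol exporter that LXR induces, had 1 UMI in MDAMB468 and 26 in CAL51, a ratio of 8.82 (1.45 to 361), and the level in CAL51 was only 1.60 CPM. RXRA, the partner receptor of LXR, had 81 and 67 UMIs and was 3.56-fold (2.55 to 5.00) higher in MDAMB468. MYLIP, an LXR target that degrades LDL receptors, was 2.89-fold (1.92 to 4.36) higher there. NR1H2, which encodes LXR beta, differed by -0.44, SREBF1, an LXR target, by 0.17 and LPCAT3, another target, by -0.15.

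For TOMM40, 16 of 17 other genes of the TOM and TIM23 import complexes were tested, with 1 at least 2-fold higher in each line (18.6% of all genes in CAL51 and 15.8% in MDAMB468), 14 under 2-fold and a median of 0.06. The former were the import chaperone HSPA9, at -1.06 on the CAL51 side, and TOMM5, a small TOM subunit, at 1.20. TOMM20, an import receptor, was at 0.56 and TOMM7 at 0.76.

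For NECTIN2, 6 of 12 genes of nectins, their partners and receptors were tested, with 2 at least 2-fold higher in each line (18.6% of all genes in CAL51 and 15.8% in MDAMB468) and a median of -0.68. NECTIN3, a partner of nectin-2 in cell contacts, had 1 UMI in MDAMB468 and 944 in CAL51, a ratio of 320 (57.3 to 12658). NECTIN4 had 239 UMIs in MDAMB468 and 4 in CAL51 and was 176-fold (67.9 to 652) higher in MDAMB468, and NECTIN1 was 4.59-fold (3.58 to 5.90) higher there. PVR, the poliovirus receptor of the same family, was 2.66-fold (2.22 to 3.20) higher in CAL51, and AFDN, the afadin that ties nectins to actin, differed by -0.52.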

How the data were processed

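The deposited values are UMI counts, whole numbers for each gene in each of 1683 barcodes. Per the submitters' processing notes the authors used STARsolo. The following were not given in the sources used here: its settings, the genome build, the annotation, the use of strand, the handling of reads shared by gene copies and the selection of barcodes. Barcode prefixes assigned each barcode to its line. Identifiers were given symbols from a gene name table (30730 of 30796 identifiers) and positions from GENCODE 29 on GRCh38 (29416 identifiers). UMI counts were summed per line and scaled to CPM, with exact Poisson, Clopper-Pearson and conditional intervals at 95%. No test across samples was possible. A gene was tested if it had at least 20 UMIs in all, and counted as differing at 2-fold on the log2(CPM + 1) scale, with a pseudocount of 1 CPM.

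Cell statistics used CAL51 barcodes thinned to 2500 UMIs, without the 31 shared sequences. No doublet caller was run and no further filter on cells was applied. They are means over 20 thinnings, an averaging adopted after a single thinning had been seen. Cell cycle phases came from scanpy 1.11.5 on the Tirosh lists, and edgeR 4.0.16 gave TMM factors only. Python 3.11.15 and R 4.3.3 were used, and the scripts were tested on simulated data. Members and gene lists were chosen with earlier results of these data known. The named genes are the 4 members, the neighbours within 250 kb with at least 20 UMIs, of each list the highest, the lowest and the 3 with the most UMIs, and the 12 highest and 8 lowest in r with APOE. LCAT, LRP1, HSPG2, SDC3, SCARB1, LSR, LRP8, SORL1, MYLIP, NECTIN1 and the 9 genes leading other CAL51 cells were added after their values were seen.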

Additional observations from a re-analysis of the deposited data

Results flagged for a closer look

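The CAL51 barcodes whose sequences the MDAMB468 library also holds, which entered no comparison, had APOE and APOC1 UMIs above the MDAMB468 level. They cannot be taken for CAL51 cells low in APOE. KRT7 was at 784 CPM and KRT19 at 2566 CPM in them. The levels were 953 and 1934 CPM in MDAMB468, and 0 and 30.6 CPM in the other CAL51 barcodes. KRT18, at 1501 CPM, was nearer to CAL51 (1555) than to MDAMB468 (555). The origin of their RNA was not tested. APOE had 10 UMIs in 7 of these 31 barcodes, 73.9 CPM (35.5 to 136), which is 23.0% of the level in the other CAL51 barcodes. APOC1 had 12 UMIs in 9 of them, 88.7 CPM (45.8 to 155), or 22.6%. TOMM40 had 7 UMIs, 64.5% of its level in the other CAL51 barcodes, and NECTIN2 7, or 90.3%. Both were thus at 51.8 CPM (20.8 to 107), an interval that holds their levels in the other CAL51 barcodes. With so few UMIs, no contrast between the 4 genes is read from these percentages. The 31 barcodes of the same sequences in MDAMB468 held 2181232 UMIs, with 0 of APOE, 0 of APOC1, 154 of TOMM40 and 35 of NECTIN2. The shared barcodes of CAL51 were shallow, with a median of 3638 UMIs.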

How the results depend on the processing

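No paired analysis was possible because each line has 1 library. Of 73 recomputed values, 54 stayed within their counting or thinning spread or, for the count of genes past 2-fold, within 1.5 times, 19 moved by more and 0 called differences reversed. With a pseudocount of 0.1 CPM the log2 difference was -10.16 for APOE and -11.94 for APOC1, and with 10 CPM -5.02, -5.33 and, for NECTIN2, -1.33. APOC1 was at -8.69 with TMM scaling, -8.70 with median-of-ratios scaling and -8.89 with totals without mitochondrial and ribosomal protein genes. TMM and median-of-ratios scaling moved the median of all genes by -0.12 and -0.13, which turned the medians of the TOM and TIM23 list to -0.07 and -0.09. Between them, these 3 scalings moved the count in a direction by at most 2 genes in any of the 6 lists, and by 0 among the neighbours. Of all genes, 5276 passed 2-fold, 3481 with at least 100 UMIs and 2192 with a pseudocount of 10 CPM. The shares of all genes higher in CAL51 and in MDAMB468, 18.6% and 15.8%, were 9.45% and 9.80% with no minimum of UMIs, which turned their order, and 21.7% and 14.4% with TMM scaling.

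The Fano factors grow with depth: APOE was at 1.48 with 1000 UMIs and 3.32 with 5000, and APOC1 at 1.48 and 3.53. The APOE-APOC1 r likewise was 0.253 at 1000 UMIs, 0.534 at 5000 (1071 cells) and 0.629 at 10000 (558 cells, chosen after seeing the data). Spearman's rho was 0.360 and the r in cells called G1 0.371. The single thinning computed first gave 0.463, a Fano factor of 2.38 for APOE and 2.32 for APOC1, near the upper end of the 20 draws for r and APOE. The r threshold of 0.15, the depth quartiles, the thinning to 10000 UMIs and the scaling check of the lists were also chosen after seeing the data.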
